A study of Mus musculus with 4 samples.

Results

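Enteric neurons are the intrinsic nerve cells of the gut wall. Their genes described here number 8: the specification genes Phox2a, Ret and Hand2, the pan-neuronal genes Elavl4 and Tubb3, and the transmitter genes Nos1, Chat and Vip. They were taken by symbol from a table of 51098 genes, and each symbol had 1 row. Whole stomachs of mice at the embryonic stage E15.5 gave the RNA, and were of genotype Fgf9LacZ/LacZ (called Fgf9_null here, treatment field Fgf9KO) or Fgf9LacZ/+ (called Fgf9_het, treatment field control). By the genotype field, every stomach carried the LacZ allele of Fgf9, a gene for a secreted fibroblast growth factor, on at least 1 chromosome. The sample titles, however, read Fgf9_Mut for Fgf9_null and Fgf9_WT for Fgf9_het. Each genotype had 2 columns, numbered 2 and 3, and the sources do not say how many embryos a column holds. The question in the labels was which genes differ between the genotypes.

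Neural crest cells that enter the foregut give rise to these neurons. They migrate and divide under the receptor tyrosine kinase Ret, which responds to the GDNF ligands through Gfra coreceptors. The homeodomain factor Phox2a and the bHLH factor Hand2 direct autonomic neuron fate. Mature neurons use nitric oxide, made by the neuronal synthase Nos1, and the peptide VIP to relax gut muscle, and acetylcholine, made by Chat, to contract it.

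Same-numbered columns held nearly the same counts under both genotype labels, which decides how the members can be read. Of genes with 10 or more counts in the pair, 54.7% were equal to within 0.001 count between the columns numbered 2 and 53.6% between those numbered 3. Leaving aside 4 genes with an edgeR p below 0.05 before adjustment, a chi-square statistic per degree of freedom was 0.000792 between the columns numbered 2 and 0.00385 between those numbered 3. It was 5.49 to 5.50 between columns of different number. The former pairs differed by less than the sampling noise, so each was counted as 1 sample, called library 2 and library 3. Column totals ran from 19269851 to 22713416 estimated counts. Since 2 more columns of the table carry no name, whether each name stands over its own column is not settled either, and every value given here under a label is uncertain in that respect. The genotype of either library is therefore not settled by the counts, and any SD below, over n = 2 libraries, may include a genotype difference. Fgf9 itself had 133 counts in both columns numbered 2 and 131 in both columns numbered 3, which does not check the labels because the part of the gene that the allele retains was not stated. Barx1, Krt8 and Cym led the genes listed for stomach, at 94.7 ± 3.38, 297 ± 4.98 and 3796 ± 218 CPM per kb. CPM is the count scaled to the column total, here divided by the kilobases of exon. How far each of these genes is specific to stomach was not tested.

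The members had nearly identical values under the 2 labels. Ret, the GDNF receptor, had 1225 and 1497 counts under the Fgf9_null label, and 1227 and 1498 under Fgf9_het. Nos1 had 1578 and 1686 counts under the Fgf9_null label, and 1580 and 1687 under Fgf9_het. These 2 genes showed the widest gap of any member between same-numbered columns, 2 counts each. In all 8 genes the lower and higher columns were set by the replicate number and the genotype groups overlapped. This follows from the near-equal counts of same-numbered columns and is no trait of the members. Its share over all genes was not computed. edgeR's quasi-likelihood test called 0 of the 8 members at an adjusted p under 0.05, beside 0% of all 19987 genes tested. All 8 members passed the filter on low counts. Their log2 folds of Fgf9_null over Fgf9_het ran from -0.0013 for Ret to 0.00077 for Hand2, with SEs from 0.0417 for Tubb3 to 0.312 for Vip, and every edgeR adjusted p was 1. The median was 0.000313 over the members and 0.0003 over all genes tested. The contrast sets each library against itself, so it carries no information on an effect of Fgf9.

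**Figure D1:**
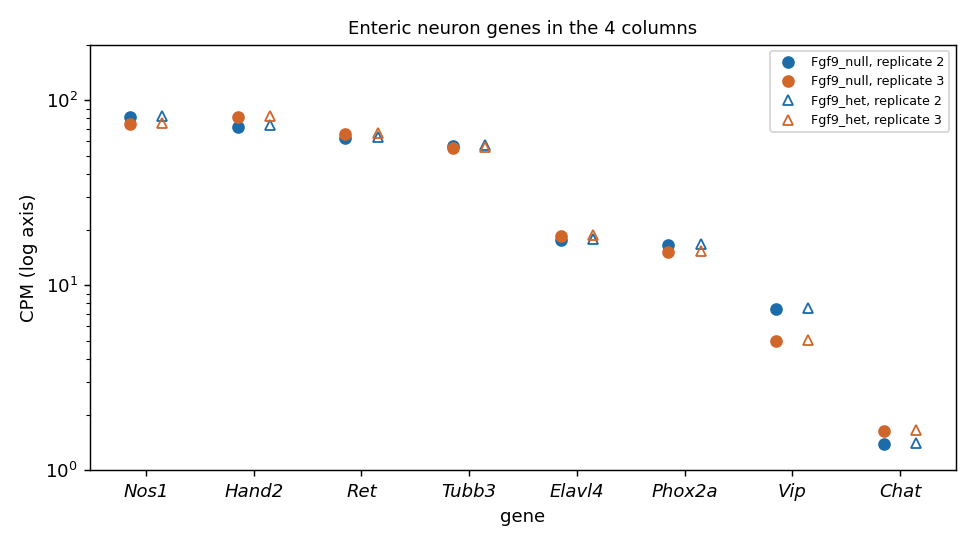
CPM (vertical, log axis) of the 8 genes (horizontal) in each of the 4 columns; filled circles are Fgf9_null, open triangles Fgf9_het, blue replicate 2 and orange replicate 3. For every gene the 2 symbols of a colour lie at almost the same height, and Vip, at 7.53 CPM in library 2 and 5.05 in library 3, shows the widest gap between colours.

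Among the specification genes, Hand2 was the most abundant per length. Hand2 (ENSMUSG00000038193, a protein-coding gene on GRCm38 chromosome 8, 57320983 to 57324633, plus strand) had 1409 counts in library 2 and 1840 in library 3. That was 72.6 and 81.5 CPM, or 32.8 ± 2.68 CPM per kb of exon (SD, n = 2 libraries). It is expressed in several embryonic tissues besides neurons, and whole-stomach RNA does not show which cells its reads came from. For every gene here, fewer cells of a type and less RNA per cell cannot be told apart. Hand2os1, a noncoding gene on the opposite strand (57281117 to 57324233), shares 461 bases of exon with Hand2, 19.6% of the exon length of Hand2. It stood at 53.8 and 63.0 CPM, higher in library 3 as Hand2 was. The strand setting of the authors' counting is not given in the sources used here, so reads of the shared part cannot be told apart.

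Ret (ENSMUSG00000030110, chromosome 6, 118151745 to 118197718, minus strand) had 63.2 CPM in library 2 and 66.4 in library 3, or 9.58 ± 0.331 CPM per kb. Its coreceptor gene Gfra1, whose product holds GDNF for Ret, stood at 13.0 ± 0.310 CPM per kb. Ret was at 0.729 times the level of Gfra1 per kb in library 2 and 0.740 times in library 3, so the pair kept almost the same proportion. With the median transcript length in place of all exon bases it was at 0.350 and 0.356 times. The ligand genes Nrtn and Gdnf had 5.67 ± 0.243 and 5.18 ± 0.355 CPM per kb. Both were below Ret and Gfra1. Gfra2, the coreceptor of neurturin, stood at 4.47 ± 0.341 CPM per kb, and Gfra3, the coreceptor of artemin, at 0.582 ± 0.0561. Of the 8 genes of the RET and GDNF family besides Ret itself, 7 reached 1 CPM in both libraries; Pspn, the persephin gene, had 2 and 8 counts. edgeR called 0 of 7 tested family members between the labels, beside 0% of all 19987 genes tested.

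Phox2a (ENSMUSG00000007946, chromosome 7, 101818313 to 101822726, plus strand) had 322 counts in library 2 (exact Poisson 95% interval 288 to 359, counting error only) and 344 in library 3 (309 to 382). This corresponded to 16.6 and 15.2 CPM and to 7.82 ± 0.470 CPM per kb. The intervals of the 2 counts overlapped. Inppl1, on the opposite strand and at 158 and 152 CPM, shares 95 exon bases with Phox2a, 4.67% of its exon length. Of 14 other neuronal transcription factor genes, 13 reached 1 CPM in both libraries, led per kb by Sox4 (44.4 ± 1.73), Sox11 (14.6 ± 0.538) and Isl1 (13.4 ± 0.207). The first of these is expressed widely in embryonic tissue. For Sox11 and Isl1 too, whole-stomach RNA does not show which cells the reads came from. edgeR called 0 of the 13 tested, beside 0% of all 19987 genes tested.

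The pan-neuronal pair differed widely in level. Tubb3 (ENSMUSG00000062380, chromosome 8, 123411424 to 123422015, plus strand), the neuronal beta-tubulin detected by the TuJ1 antibody, had 1105 and 1247 counts, 57.0 and 55.3 CPM. Per kb it reached 30.0 ± 0.643 CPM. Elavl4 (ENSMUSG00000028546, chromosome 4, 110203722 to 110351909, minus strand), which encodes the RNA-binding protein HuD, had 342 and 421 counts, 17.6 and 18.7 CPM. Per kb it reached 3.37 ± 0.135 CPM, so Tubb3 stood 9.32 times as high as Elavl4 in library 2 and 8.54 times in library 3. Among the Hu family genes, Elavl4 was 1.38 and 1.252 times the level of Elavl3 (HuC) per kb, and 3.24 and 4.06 times that of Elavl2 (HuB). This order held with the longest transcript as the length but not with the median transcript length, which put Elavl4 at 0.869 and 0.789 times Elavl3 and at 0.875 and 1.10 times Elavl2.

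Other genes of the neuronal cytoskeleton and membrane accompanied them. All 21 other pan-neuronal genes reached 1 CPM in both libraries, led per kb by Tubb2b (51.0 ± 5.15), the adhesion molecule gene Ncam1 (33.4 ± 1.8) and Uchl1 (19.2 ± 1.11), the gene of PGP9.5. Tubb2b and Ncam1 are not restricted to neurons. Of 1867 stretches of 31 bases in the Tubb3 transcripts, 3.21% also occur in transcripts of other genes, with Tubb6 sharing the most. Ret and Elavl4 transcripts share no such stretch with another gene in the GENCODE M21 transcripts.

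Per kb of exon, the transmitter genes spanned the widest range, with Nos1 well above Vip and Vip above Chat. Nos1 (ENSMUSG00000029361, chromosome 5, 117781032 to 117958840, plus strand) had 81.4 CPM in library 2 and 74.7 in library 3. Its exons cover 11151 bases, the longest of the 8, and per kb it reached 7.0 ± 0.421 CPM. Per kb Nos1 was 3.30 times as high as Vip in library 2 and 4.51 times in library 3, and 24.7 and 19.2 times as high as Chat. It also exceeded Nos3, the endothelial synthase gene, by 2.88 and 2.32 times, and Nos2, the inducible synthase gene, was at 0.560 ± 0.131 CPM per kb. These ratios kept their direction but not their size under other gene lengths. With the longest transcript Nos1 was 16.5 and 12.9 times as high as Chat. With the median transcript length it was 8.77 and 6.84 times as high as Chat, 5.0 and 6.85 times as high as Vip, and 6.94 and 5.58 times as high as Nos3. Vip and Chat were thus nearly level in library 3 on that length. Tubb3 was then 9.21 and 8.44 times as high as Elavl4, a wider range than that of the transmitter genes. The antisense gene Gm26995 shares 268 of the exon bases of Nos1 and had 2.05 and 7.28 counts. Skeletal muscle also expresses Nos1. The summed level of 10 skeletal muscle genes was also higher in library 2, at 51.8 CPM against 34.8 in library 3, with none of the 10 at 0 in both libraries. Ttn alone had 15.6 and 7.13 CPM. Of the 7 with 1 CPM or more in both libraries, 6 were higher in library 2 and 1 in library 3, beside 9061 and 7651 of all 16712 such genes. The part of skeletal muscle in the Nos1 reads was not tested. Among the 10, the muscle regulator gene Myog had 0 and 2 counts.

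Chat and Vip are shown with the sequence around their start because they had the fewest reads of the members. The windows run from 250 bases before to 50 bases after the start, from RefSeq on GRCm38.p6, in the direction of transcription. Of the 8 members, 7 had such a window. Capitals mark TGACG, the core of the cyclic AMP response element, searched on both strands (read as CGTCA on the other), and TATAAA, the form of the TATA box searched, likewise on both strands. The motifs do not overlap each other in these windows.
Vip chr10:5638968-5639267, plus strand: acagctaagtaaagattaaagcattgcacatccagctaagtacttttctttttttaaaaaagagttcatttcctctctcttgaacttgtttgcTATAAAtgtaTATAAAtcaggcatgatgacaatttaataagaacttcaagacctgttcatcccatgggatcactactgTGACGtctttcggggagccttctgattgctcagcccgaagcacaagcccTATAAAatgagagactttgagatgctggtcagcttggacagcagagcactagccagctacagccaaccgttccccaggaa
Chat chr14:32465860-32466159, minus strand: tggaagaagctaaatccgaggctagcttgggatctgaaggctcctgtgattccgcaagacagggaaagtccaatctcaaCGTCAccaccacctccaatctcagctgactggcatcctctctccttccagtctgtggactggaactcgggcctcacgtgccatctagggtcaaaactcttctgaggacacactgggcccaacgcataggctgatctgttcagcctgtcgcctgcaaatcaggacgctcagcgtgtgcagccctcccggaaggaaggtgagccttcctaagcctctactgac

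The Vip window holds TGACG 79 bases before the start and TATAAA 157, 147 and 30 bases before it. The Chat window holds the former motif on the other strand 171 bases before the start, and no TATA box form. That distance counts from the RefSeq start of Chat. The RefSeq start, not the motif, lies inside the gene span given below for Chat, which on the minus strand begins at 32465989. The motif TGACG occurs in 20.8% of 32851 windows of the same length and in windows of 5 members, and TATAAA in 13.6% of windows and, among the members, in Vip only. These matches describe letters, not binding.

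Chat (ENSMUSG00000021919, chromosome 14, 32408203 to 32465989, minus strand), the choline acetyltransferase gene, had 27 counts in library 2 (exact Poisson 95% interval 17.8 to 39.3) and 37 in library 3 (26.1 to 51.0). Those counts corresponded to 1.39 and 1.64 CPM and to 0.322 ± 0.0373 CPM per kb, the lowest level of the 8 genes. The vesicular acetylcholine transporter gene Slc18a3 (32462438 to 32464850) lies within the span of Chat on the same strand and shares no exon base with it. Slc18a3 had 134 and 142 counts. Per kb Slc18a3 stood 9.67 times as high as Chat in library 2 and 7.48 times in library 3. The choline transporter gene Slc5a7 had 182 and 161 counts and stood 5.62 and 3.63 times as high as Chat per kb. These ratios rest on the exon length of Chat. With each gene's longest transcript as its length, Slc18a3 was 5.88 and 4.55 times and Slc5a7 3.72 and 2.4 times as high as Chat. With the median transcript length Slc18a3 was 1.35 and 1.05 times as high, and Slc5a7 was 1.09 times as high in library 2 and 0.702 times in library 3, so that its order with Chat turned there.

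Vip (ENSMUSG00000019772, chromosome 10, 5639218 to 5647617, plus strand), the gene of vasoactive intestinal peptide, had 146 counts in library 2 (exact Poisson 95% interval 123 to 172) and 114 in library 3 (94.0 to 137). This was 7.53 and 5.05 CPM, and 1.85 ± 0.515 CPM per kb. Relative to Tubb3, Vip stood at 0.0726 per kb in library 2 and 0.0502 in library 3, while Elavl4 stood at 0.107 and 0.117. Of 14 other neuropeptide and calcium-binding marker genes, 11 were lower per kb than Vip and 3 were higher: Penk (enkephalin) at 16.9 ± 1.24, Cartpt at 6.47 ± 1.40 and Gal (galanin) at 3.20 ± 0.172. With the median transcript length Gal was at 0.895 times Vip in library 2 and 1.44 times in library 3. Of the 14, 4 reached 1 CPM in both libraries. Calb2 had no count in any named column, with an exact Poisson 95% upper limit of 3.69 counts in each library. For scale, 3 counts are 0.132 to 0.156 CPM. Penk is not restricted to neurons.

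Receptors of these transmitters were present as well. Vipr2, a VIP receptor gene, stood at 7.33 ± 0.247 CPM per kb, against 0.160 ± 0.0120 for Vipr1. Gucy1a1 and Gucy1b1, the subunits of the nitric oxide receptor guanylate cyclase, reached 15.7 ± 1.73 and 13.7 ± 1.65 CPM per kb. The muscarinic receptor gene Chrm2 stood at 13.7 ± 1.70 and Chrm3 at 2.82 ± 0.0424. edgeR called 0 of the 8 receptor and effector genes tested between the labels, beside 0% of all 19987 genes tested.

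**Figure D2:**
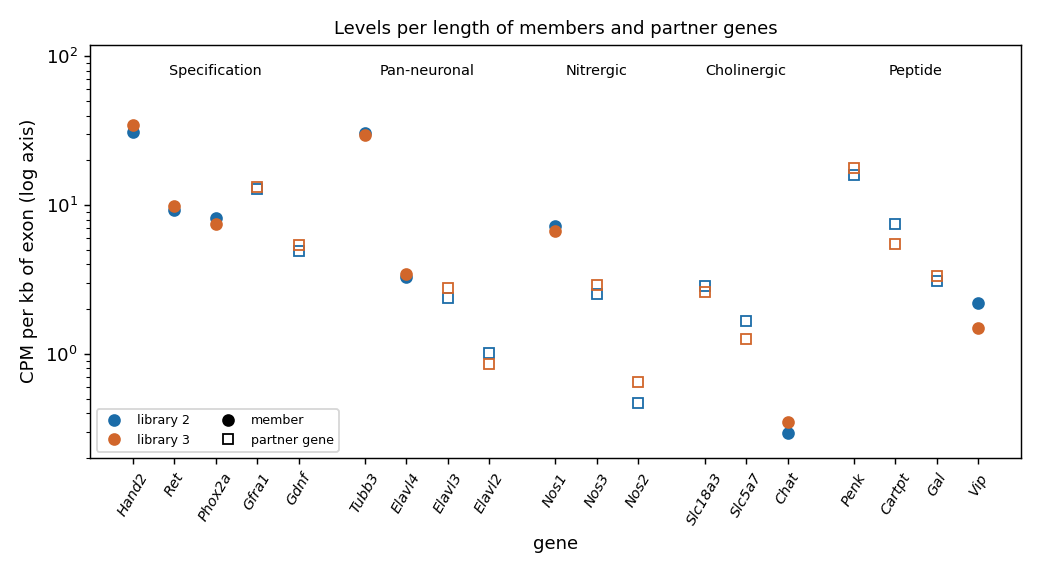
CPM per kb of exon (vertical, log axis) of the 8 members (filled circles) and partner genes (open squares), grouped by role, with library 2 in blue and library 3 in orange. Hand2 and Tubb3 lie near 30 CPM per kb, and on this exon length Chat lies below Slc18a3 and Slc5a7.

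Ordered by level per kb, the members ran Hand2, Tubb3, Ret, Phox2a, Nos1, Elavl4, Vip and Chat. No pair of neighbours in this order overlapped in its library values. The ranges of mean ± SD did overlap between Hand2 and Tubb3 and between Phox2a and Nos1. These SDs ignore that the genes were measured in the same libraries. Hand2 stood at 30.9 against 30.5 for Tubb3 in library 2, and at 34.7 against 29.6 in library 3. Phox2a stood at 8.16 against 7.30 for Nos1 in library 2, and at 7.49 against 6.70 in library 3. Whether these neighbours differ was not tested. The order was the same with the longest transcript as the length. With the median transcript length it became Tubb3, Hand2, Nos1, Phox2a, Ret, Elavl4, Vip and Chat. The upper places thus depend on the gene model, while Elavl4, Vip and Chat kept the lowest places under all 3 lengths.

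Between the libraries, most members differed by little. Each library is 1 sample, so these ratios have no replicate check, and their intervals cover counting error only (95%, exact, conditional on the summed count). Vip was 1.49-fold higher in library 2 than in library 3 (interval 1.16 to 1.92). Nos1 was 1.09-fold higher in library 2 (1.02 to 1.17), and Hand2 was 1.12-fold higher in library 3 (1.05 to 1.20). With CPM on column totals, the intervals of these 3 genes left out equality. TMM library sizes multiply each member's ratio of library 3 to library 2 by 1.021. The near end of the Nos1 interval is 1.016, so on TMM sizes that interval would include equality. The share of all genes whose interval leaves out equality was not computed. For Phox2a, Ret, Elavl4, Tubb3 and Chat the difference was not detectable at this depth, with ratios of library 3 to library 2 from 0.918 to 1.18. Chat had the widest interval, 0.698 to 2.01. None of the 8 members passed 1.5-fold in either direction, beside 2.52% of 16712 genes with 1 CPM or more in each library that were more than 1.5-fold higher in library 2 and 1.36% that were more than 1.5-fold higher in library 3. The ratio of Vip was lower than that of all but 2.65% of those genes. The median ratio was 1.01 over the members and 0.989 over those genes, and 4 members were higher in each library.

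**Figure D3:**
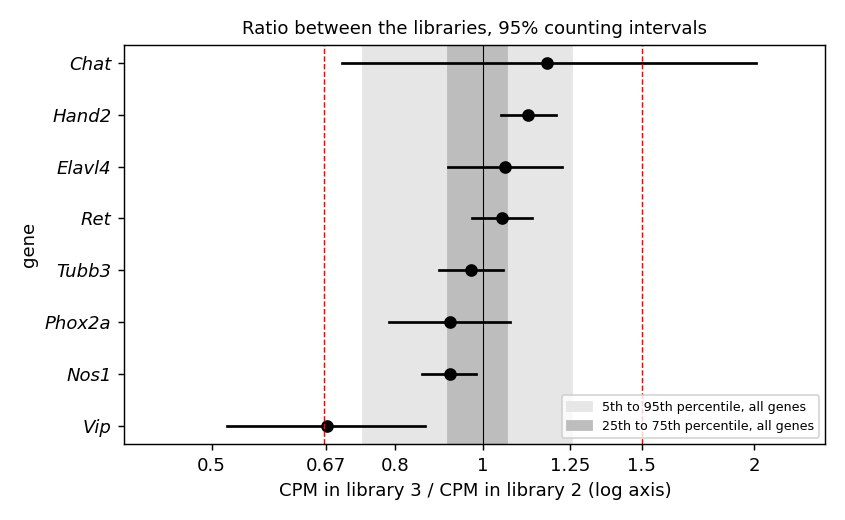
Ratio of CPM in library 3 to library 2 (horizontal, log axis) for each member, with the exact 95% counting interval as a bar; grey bands span the middle of the ratios of 16712 genes and red dashed lines mark 1.5-fold. Vip, at 0.671, lies just inside the line on the library 2 side, and the other 7 members lie between 0.918 and 1.18.

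The medians of the neuronal lists lay on both sides of equality, and the 3 transmitter members had a median ratio of 0.918. Of the 21 other pan-neuronal genes, 10 were higher in library 3 and 11 in library 2, with a median ratio of 0.993. Among other transmitter enzymes and transporters, 4 were higher in library 3 and 5 in library 2, with a median of 0.991. The 4 other peptide and calcium-binding genes at 1 CPM had a median of 0.907. Among them Tac1 (ratio 0.658) and Cartpt (0.734) were higher in library 2, as Vip was, and Gal (1.08) and Penk (1.11) were higher in library 3. Tlx2, a homeobox gene of enteric neurons, was the one neuronal transcription factor past 1.5-fold, at 48 counts in library 2 and 87 in library 3. Neural crest and glia genes had a median ratio of 1.09, and their leading members per kb were Erbb3 (26.5 ± 0.231), Ednrb (20.3 ± 1.20) and Sox10 (8.02 ± 0.619). S100b, a glial gene, was the one member of that list past 1.5-fold, at 51 counts in library 2 and 33 in library 3. Tac1, Tlx2 and S100b were named after their values were seen.

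**Figure D4:**
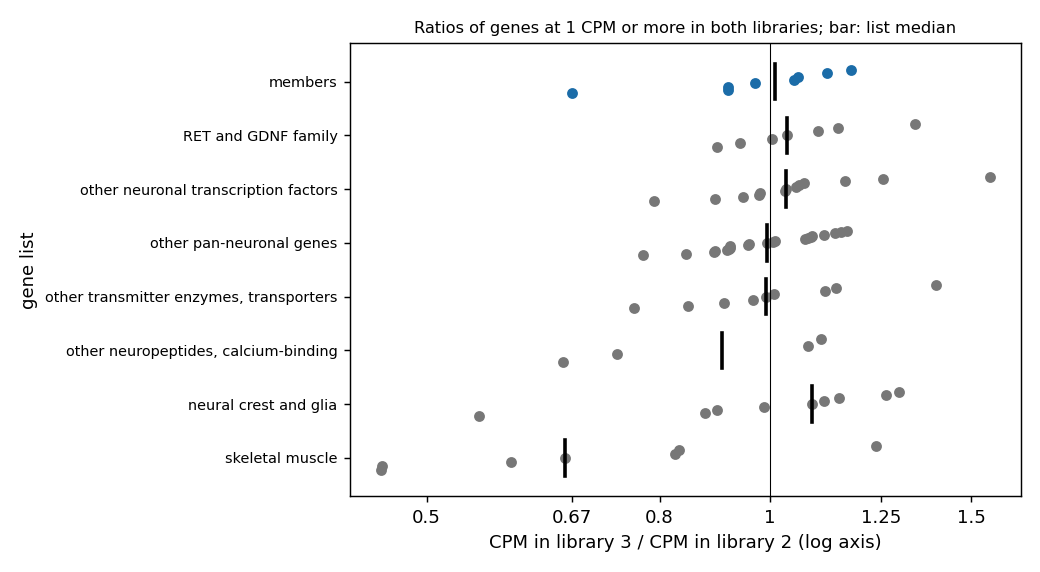
Ratio of CPM in library 3 to library 2 (horizontal, log axis) for genes with 1 CPM or more in each library, 1 row per gene list, points being genes and bars list medians. Member ratios (blue) centre on 1.01, as the pan-neuronal list does on 0.993, and the skeletal muscle median lies at 0.661.

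Markers of other cell types that hold nerve or endocrine genes were measured beside the members. The 8 enteroendocrine genes summed to 14.9 CPM in library 2 and 15.2 in library 3. The interstitial cell of Cajal genes Kit and Ano1 had 15.8 ± 0.121 and 21.6 ± 0.0260 CPM per kb. Of the enzymes of noradrenaline synthesis, Th had 18 and 17 counts and Dbh 10 and 9, both under 1 CPM.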

How the data were processed

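RNA of whole stomachs was depleted of ribosomal RNA and sequenced as paired reads, per the labels' protocols. Salmon 1.8.0, Trimmomatic 0.33, FastQC 0.10 and edgeR are named, with GRCm38 and mm10, per the submitters' processing notes. What each tool did, the annotation release and the strand setting were not given in the sources used here. Values in the authors' table are estimated counts per gene with no scaling to depth. Each of 4 columns was matched to a sample by title; 2 further columns of values carry no name and were not used. Totals were 19537211, 22713416, 19269851 and 22425865 for Fgf9_null 2 and 3 and Fgf9_het 2 and 3.

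CPM is the count over the column total, averaged over same-numbered columns. It was divided by the exon union of GENCODE M21 (GRCm38), in which 50870 of the genes were found. The chi-square statistic used genes whose counts summed to 10 or more. Rounded counts entered edgeR 4.0.16 under R 4.3.3 (TMM, filterByExpr, quasi-likelihood F test, Benjamini-Hochberg over all genes tested, threshold 0.05) with no block; SEs were taken from its p-values. The test was checked on simulated data with independent columns, so that check does not cover columns that share a library. DESeq2 1.42.0, other factors, filters, gene lengths, library sizes and left-out columns were alternatives. P-values reflect the spread between columns, which may be technical. No likeness of pattern between genes was computed, because 2 libraries fix the size of any correlation.

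The members and lists were chosen with earlier results of these data known. The text names the 8 members, Fgf9, the 3 genes highest per kb of a list and relatives of a member; other genes were added after their values were seen, among them Gfra2, Vipr1, Vipr2, Chrm3, Th, Dbh and genes overlapping a member.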

Additional observations from a re-analysis of the deposited data

How the results depend on the processing

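No gene was called by edgeR with RLE factors or with either other filter on low counts; DESeq2 called 3 genes, and leaving out 1 column gave 1 to 2, the single column left in a group being assumed as variable as the pair. With the replicate block edgeR called 6 genes; same-numbered columns deviated together (correlation 0.999 over genes), as they hold 1 library, and each member's edgeR adjusted p stayed at 1. Without 1 column the log2 fold of Fgf9_null over Fgf9_het turned with the library left out: -0.0509 to 0.0514 for Phox2a, -0.0483 to 0.0448 for Ret, -0.0962 to 0.0982 for Hand2, -0.0526 to 0.0530 for Elavl4, -0.0115 to 0.0119 for Tubb3, -0.0526 to 0.0508 for Nos1, -0.138 to 0.138 for Chat and -0.298 to 0.298 for Vip, none called. Such contrasts set the libraries against each other in unequal numbers. Without 6 structured RNA genes in the library size all levels were 1.20 to 1.21 times as high; those moved by over 1 SD were Phox2a (19.2 CPM), Ret (78.0), Hand2 (92.9), Elavl4 (21.9), Tubb3 (67.6), Nos1 (94.0) and Chat (1.83). Levels from 1 label's columns or with TMM library sizes moved by less than 1 SD, and all library ratios stayed within their counting intervals. Per kb, the longest transcript gave 9.89 for Phox2a, 11.9 for Ret, 4.37 for Elavl4, 7.71 for Nos1, 0.530 for Chat and 2.48 for Vip. The median transcript length gave 14.3 for Phox2a, 13.0 for Ret, 4.81 for Elavl4, 42.4 for Tubb3, 17.8 for Nos1, 2.30 for Chat and 3.10 for Vip, which moved Phox2a, Nos1, Chat and Vip by over 1.5 times; the longest transcript did so for Chat. With a lower fold threshold in place of 1.5-fold, 1 member passed between the libraries, and at 2-fold none did. That member was Vip, at 1.49-fold, and the next widest ratio, that of Chat at 1.18-fold, did not pass. The share of all genes past the lower or the 2-fold threshold was not computed, so these counts have no background to be read against. Depth limits Chat most.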

Other observations

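The library ratio of Tubb3 lay below those of its gene family at 1 CPM or more. The 6 other beta-tubulin genes with 1 CPM or more in each library were all higher in library 3, with ratios to library 2 from 1.08 to 1.19 and a median of 1.16. The ratio of Tubb3 was 0.970, and its counting interval (0.894 to 1.05) included equality. That interval overlapped those of Tubb4a (0.984 to 1.26) and Tubb6 (1.02 to 1.15), but not those of Tubb2a, Tubb2b, Tubb4b and Tubb5. Each library is 1 sample, so this gap has no replicate check. Over all 16712 genes at that level, 7651 were higher in library 3. Tubb5, Tubb4b and Tubb2a, which many dividing cells express, led the family at 313 ± 35.8, 95.2 ± 11.9 and 54.0 ± 6.37 CPM per kb (SD, n = 2 libraries).

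Genes that handle monoamines were uneven. Ddc, which makes dopamine and serotonin from their precursors, and Slc18a2, the vesicular monoamine transporter gene, stood at 5.62 ± 0.138 and 2.35 ± 0.0150 CPM per kb. Tph2, the neuronal serotonin synthesis gene, and Slc17a6, a vesicular glutamate transporter gene, had no count in any named column, which allows up to 0.132 to 0.156 CPM. Gad1 and Gad2, the GABA synthesis genes, had 0.0478 ± 0.0183 and 0.247 ± 0.0288 CPM per kb. Tph2, Slc17a6 and Gad1 had too few counts to be tested between the labels. Of 13 tested transmitter enzymes and transporters, Ddc, Slc18a2 and Gad2 among them, edgeR called 0, beside 0% of all 19987 genes tested. At an unadjusted edgeR p under 0.05 stood 0 of the 13, beside 4 of all genes tested. As this contrast sets each library against itself, these counts carry no information on an effect of Fgf9.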
